A study of Mus musculus with 12 samples.

Results

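Marker genes of the thalamus and the habenula, brain regions that lie next to the hippocampus, were followed in hippocampal RNA of WT and Nell-1+/6R littermates. These 10 genes, Tcf7l2, Rgs16, Plekhg1, Ptpn3, Tnnt1, Ntng1, Zic1, Tac2, Pou4f1 and Gbx2, were named by symbol as markers of these regions, with no threshold on their measured values, and each was found by its Entrez ID among the 27179 gene IDs of the deposited count matrix. The dissected hippocampus of 12 mice that were 3 months old was used, and each genotype held 3 females and 3 males. ENU mutagenesis gave the 6R allele, which has lost the function of Nell1, so Nell-1+/6R mice keep 1 working copy in every cell of the body, and the WT mice carry none of the mutant allele. No further allele, treatment or transgene is named for either group.

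The thalamus relays sensory and motor signals to the cortex, and its excitatory neurons are specified and maintained by transcription factors such as Gbx2 and Tcf7l2. The habenula, which sits on top of the thalamus, links the forebrain to the midbrain and is known for its role in aversion and for neurons that use neuropeptides and acetylcholine. Both regions border the hippocampus, so a dissected sample may carry some of their tissue. In such bulk samples fewer cells of a type and less RNA per cell cannot be told apart.

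The counts of a mouse summed to between 10834905 and 16016317, with a median of 12213485 in WT mice and 13507269.5 in Nell-1+/6R mice. Levels are given as CPM, the counts of a gene scaled to a total of 1000000 counts in the same mouse. Nell1 itself had 30.5 to 44.7 CPM in the 6 WT mice and 16.5 to 21.4 CPM in the 6 Nell-1+/6R mice, so that the genotypes did not overlap (edgeR log2 fold change -0.93 ± 0.0803 (SE), adjusted p = 0.00015). Genes of hippocampal principal neurons, led by Camk2a, summed to 9670 to 13000 CPM in WT mice and 10000 to 11800 CPM in Nell-1+/6R mice. Leptomeningeal fibroblast genes summed to 119 to 391 CPM in WT and 68.6 to 381 CPM in Nell-1+/6R mice, so that they spread widely within both genotypes. Choroid plexus genes summed to 54.8 to 4680 CPM in WT mice (median 475), while 5 of the 6 Nell-1+/6R mice had 45.7 to 80.8 CPM and female 1 had 5380 CPM (median 67.2). All 10 choroid plexus genes had a log2 fold change below 0, with a median of -1.0, and none had an unadjusted p under 0.05 in edgeR.

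All 10 genes had reads, but at very different levels. To compare genes, CPM was divided by the length of the gene's exons in kilobases. On that scale Ptpn3 was highest, at 12.3 ± 1.33 (SD, n = 12), followed by Ntng1 at 5.29 ± 0.541, Rgs16 at 3.36 ± 0.47, Zic1 at 2.59 ± 1.22, Plekhg1 at 2.24 ± 0.368 and Tac2 at 1.69 ± 0.345. Tcf7l2 followed at 0.842 ± 0.192 and Tnnt1 at 0.5 ± 0.188, while Gbx2 at 0.0596 ± 0.0878 and Pou4f1 at 0.0105 ± 0.0141 were close to 0. Of the 9 steps in this order, those from Ptpn3 to Ntng1, from Ntng1 to Rgs16 and from Tac2 to Tcf7l2 separated the ranges of the 12 mice, and the ranges of the other neighbours overlapped. Within single mice, Rgs16 was above Zic1 in 10 of 12, Zic1 above Plekhg1 in 8 and Plekhg1 above Tac2 in 10, whereas Tcf7l2 was above Tnnt1 in all 12.

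**Figure D1:**
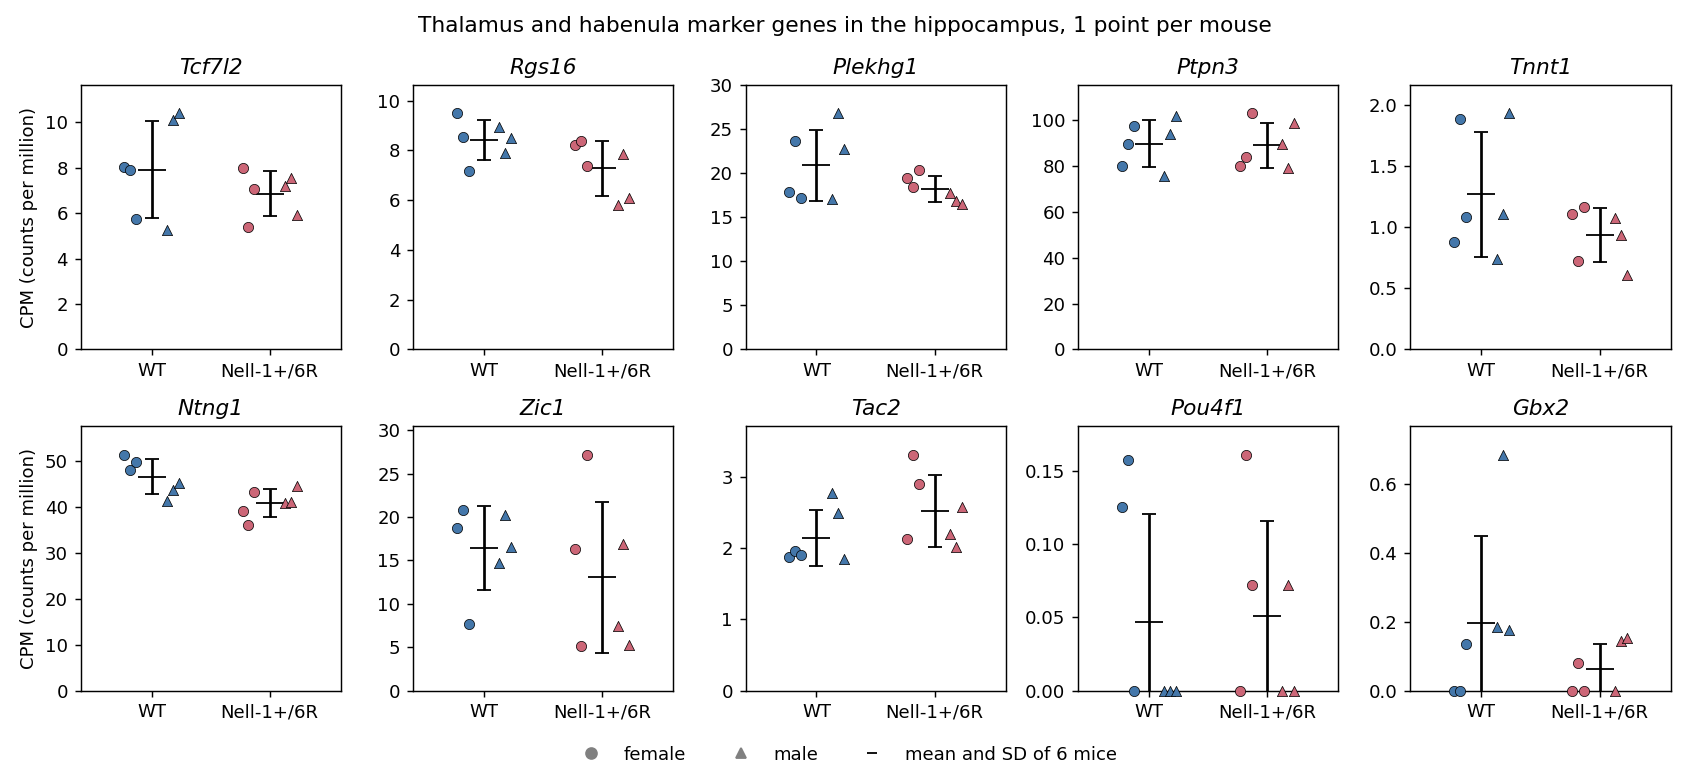
Level of each of the 10 genes in CPM (linear axes from 0), with 1 point per mouse, circles for females and triangles for males, and the mean and SD of the 6 mice of a genotype as a black bar. The genotypes overlap in every panel, Zic1 spreads from 5.16 to 27.2 CPM among Nell-1+/6R mice, and the 3 WT females stand above the other mice for Ntng1.

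Of the 10 genes, 8 reached the minimum level for testing (a CPM of 0.2 in at least 2 mice), and Pou4f1 and Gbx2 did not. None of the 8 changed between the genotypes at the thresholds of the study, an unadjusted p under 0.05 with a fold change above 1.5, which 261 of 17937 genes tested (1.46%) passed in edgeR. None of the 8 had an adjusted p under 0.05 either, as 7 genes (0.039%) did. Ntng1 alone had an unadjusted p under 0.05, a level that 584 genes (3.26%) reached, and it was also the only one of the 8 to do so in DESeq2 and in limma-voom. The CPM of the genotypes overlapped for each of the 10, whereas 32 of the 17937 genes (0.178%) were free of overlap. Among the 8, the log2 fold change of Nell-1+/6R over WT was below 0 for 6 and above 0 for 2, and the median was -0.18, beside -0.00076 over all genes tested, of which 50.3% were below 0.

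Transcription factors come first among the 10, and all positions given are those of the genes in RefSeq on GRCm38. Tcf7l2 (Entrez ID 21416, chromosome 19, 55741797 to 55933659, plus strand), a nuclear partner of beta-catenin in Wnt signalling and a selector gene of thalamic neurons, had 5.26, 7.98 and 10.4 CPM as the lowest, median and highest WT level and 5.41, 7.14 and 7.98 CPM in Nell-1+/6R mice. Its highest levels were those of WT males 2 and 3, at 10.1 and 10.4 CPM, yet WT male 1 was the lowest of all 12 mice, and the genotypes overlapped widely. The WT mean of 7.92 ± 2.14 CPM compared with 6.86 ± 0.993 CPM for Nell-1+/6R (SD, n = 6 each; edgeR log2 fold change -0.19 ± 0.165 (SE), 95% interval -0.56 to 0.19, unadjusted p = 0.278, adjusted p = 1.0). Of its partners, Ctnnb1, which encodes beta-catenin, had a log2 fold change of -0.04, Axin2, a feedback target of the pathway, -0.12, and the paralogs Tcf7 and Tcf7l1 -0.15 and 0.03, each with an adjusted p of 1.0.

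Pou4f1 or Brn3a (Entrez ID 18996, chromosome 14, 104461675 to 104468118, minus strand), a POU-domain factor that specifies habenular neurons, was next to absent. It had 2, 2 and 0 counts in the WT females, 0 in each WT male, 0, 2 and 1 counts in the Nell-1+/6R females and 0, 1 and 0 in the Nell-1+/6R males. Each genotype thus held 4 counts, which comes to 0.0516 CPM for WT (exact 95% Poisson interval 0.0141 to 0.132) and 0.0494 CPM for Nell-1+/6R (0.0135 to 0.127). A difference between genotypes was not detectable at this depth. Its paralogs were no higher, since Pou4f2 had 2 counts in all and Pou4f3 was at 0 in each of the 12 mice.

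Gbx2 (Entrez ID 14472, chromosome 1, 89927962 to 89931176, minus strand), a homeobox factor of the developing thalamus, had 0, 0 and 2 counts in WT females, 2, 8 and 2 in WT males, 0, 1 and 0 in Nell-1+/6R females and 0, 2 and 2 in Nell-1+/6R males. WT male 2 held 8 of the 14 WT counts, and no other mouse had more than 2. Over the genotypes this gave 0.181 CPM (exact 95% Poisson interval 0.0988 to 0.303) for WT and 0.0618 CPM (0.0201 to 0.144) for Nell-1+/6R, and these intervals, which cover counting error only, overlap. An exact two-sided permutation test of the CPM of 6 against 6 mice gave p = 0.24 for Gbx2 and p = 0.924 for Pou4f1, where the smallest p this design allows is 0.00216.

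Zic1 (Entrez ID 22771, chromosome 9, 91358058 to 91365768, minus strand), a zinc-finger factor expressed in the dorsal midline of the brain and also in the meninges, was the most uneven of the 8 tested genes. In WT mice it had 7.65, 17.6 and 20.8 CPM as the lowest, median and highest level, and in Nell-1+/6R mice 5.16, 11.8 and 27.2 CPM. Both the lowest and the highest mouse were Nell-1+/6R females, replicates 2 and 3, so the range of the WT mice lay inside that of the Nell-1+/6R mice. The 5.26-fold span between mice gave a coefficient of variation of 47.2%, against a median of 12.5% for the 500 genes nearest to it in level, of which 99.6% varied less. The difference between genotypes was smaller than this spread (16.4 ± 4.86 and 13 ± 8.70 CPM, SD, n = 6 each; edgeR log2 fold change -0.35 ± 0.368 (SE), 95% interval -1.18 to 0.49, unadjusted p = 0.362, adjusted p = 1.0).

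Zic1 varied from mouse to mouse much as its relatives did. Among 14391 genes with a mean of at least 1 CPM, the 3 whose log2 CPM was most like that of Zic1 over the 12 mice were Zic4 (Pearson r = 0.924), Zic2 (r = 0.921) and Appl2 (r = 0.911). The genotype means were kept for these 3 values. Zic1 and Zic4 lie head to head on chromosome 9 of GRCm38, and their annotated ends share 138 bases, from 91365631 to 91365768. No source used here states the strand setting of the counting, so reads in those 138 bases cannot be assigned to either gene with certainty. Zic2 does not share this locus, and it had 14.3 to 26.2 CPM among WT and 12.3 to 24.7 CPM among Nell-1+/6R mice, with its lowest level in the same Nell-1+/6R female, replicate 2, as Zic1.

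The level of Zic1 also followed that of leptomeningeal fibroblast genes, the fibroblasts of the arachnoid and pia (Col1a1, Col1a2, Col3a1, Dcn, Lum, Slc6a13, Slc22a6, Igf2, Aldh1a2 and Ogn). Over the 12 mice, with the genotype means removed, Zic1 and the mean log2 CPM of these 10 genes had a Pearson r of 0.86 (permutation p = 0.0002, adjusted p = 0.0208 over the 104 relations of the 8 genes with 13 lists) and a Spearman coefficient of 0.874 (permutation p = 0.00054, adjusted p = 0.0562). Without the 2 mice farthest from the median of these 10 genes, r was 0.917. Within a genotype r was 0.924 in the 6 Nell-1+/6R mice (exact permutation p = 0.00833) and 0.733 in the 6 WT mice (exact permutation p = 0.143). The same 10 genes were all below 0 in log2 fold change between genotypes, with a median of -1.01. Of these, 7 passed the thresholds of the study, beside 1.46% of all genes tested, and none of the 10 was at 0 in all mice. Their part in the level of Zic1 was not tested. This relation was looked for after the data had been seen, and it was the only one of the 104 with an adjusted p under 0.05, while 11 had an unadjusted p under 0.05.

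**Figure D2:**
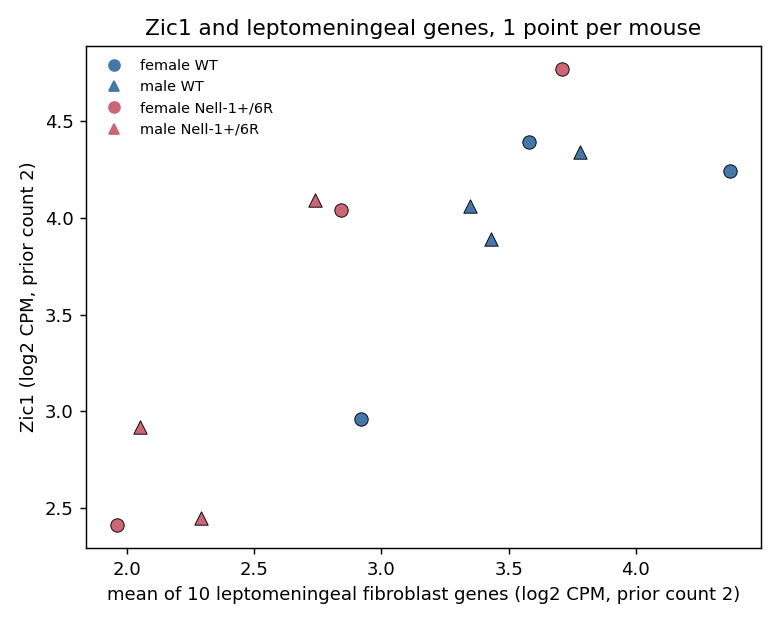
Zic1 (vertical axis, log2 CPM with a prior count of 2) against the mean of 10 leptomeningeal fibroblast genes (horizontal axis, same unit), with 1 point per mouse, coloured by genotype and shaped by sex. Zic1 lies between 2.41 and 2.96 in the 4 mice where it is lowest, and 3 of these are the mice in which the leptomeningeal genes are lowest, at 1.96 to 2.29.

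Signalling genes make up the next group. Rgs16 (Entrez ID 19734, chromosome 1, 153740353 to 153745468, plus strand), which speeds up GTP hydrolysis by G proteins and so shortens signalling through receptors, had 7.17, 8.51 and 9.49 CPM as the lowest, median and highest WT level and 5.80, 7.62 and 8.39 CPM in Nell-1+/6R mice. Nell-1+/6R males 1 and 3, at 5.80 and 6.07 CPM, were the lowest of all, and the other 4 Nell-1+/6R mice lay within the WT range. The means were 8.42 ± 0.810 and 7.29 ± 1.11 CPM (SD, n = 6 each; edgeR log2 fold change -0.20 ± 0.112 (SE), 95% interval -0.45 to 0.06, unadjusted p = 0.0997, adjusted p = 1.0). Its relatives Rgs4 and Rgs8, the most abundant of the Rgs genes listed, had log2 fold changes of 0.01 and 0.14 with adjusted p of 1.0.

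Plekhg1 (Entrez ID 213783, chromosome 10, 3740251 to 3967303, plus strand), a guanine nucleotide exchange factor, had 17.1, 20.3 and 26.8 CPM among WT and 16.5, 18.1 and 20.4 CPM among Nell-1+/6R mice as the lowest, median and highest level. WT male 2 at 26.8 CPM, WT female 2 at 23.6 CPM and WT male 3 at 22.7 CPM exceeded each Nell-1+/6R mouse, and the other 3 WT mice lay among them. Between genotypes Plekhg1 differed by -0.18 ± 0.112 (edgeR log2 fold change and SE; 20.9 ± 4.05 and 18.2 ± 1.5 CPM, SD, n = 6 each; 95% interval -0.43 to 0.08, unadjusted p = 0.138, adjusted p = 1.0).

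Ptpn3 (Entrez ID 545622, chromosome 4, 57190841 to 57339040, minus strand), a non-receptor tyrosine phosphatase with a FERM and a PDZ domain, was the most abundant of the 10 and the steadiest between genotypes. It had 75.7, 91.8 and 102 CPM as the lowest, median and highest WT level and 79.0, 86.7 and 103 CPM in Nell-1+/6R mice, ranges that nearly coincide. Its log2 fold change was 0.01 ± 0.0916 (edgeR, SE; 89.7 ± 10.2 and 89.0 ± 9.92 CPM, SD, n = 6 each; adjusted p = 1.0), and the 95% interval of -0.20 to 0.21 corresponds to a change between -13.1% and 15.9%. The long noncoding gene Gm12536 lies on the other strand within Ptpn3, so without the strand, reads of their overlap cannot be told apart. Ptpn4, the nearest paralog of Ptpn3, had a log2 fold change of -0.00 ± 0.418 (edgeR, SE). It was far less even, with 1.85 to 6.77 CPM among WT and 1.26 to 9.33 CPM among Nell-1+/6R mice.

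Ntng1 (Entrez ID 80883, chromosome 3, 109780050 to 110149972, minus strand) encodes netrin-G1, a membrane-anchored protein on thalamic and other axons that binds the postsynaptic protein NGL-1 (Lrrc4c). It had 51.3, 47.9 and 49.7 CPM in WT females 1 to 3 and 41.3, 43.6 and 45.2 CPM in WT males. In Nell-1+/6R mice it had 39.1, 35.9 and 43.2 CPM in females and 40.7, 40.9 and 44.5 CPM in males. All 3 WT females thus exceeded the other 9 mice, and the WT males overlapped with the Nell-1+/6R mice. Over both sexes the WT mean of 46.5 ± 3.80 CPM compared with 40.7 ± 3.04 CPM for Nell-1+/6R (SD, n = 6 each; edgeR log2 fold change -0.17 ± 0.0732 (SE), 95% interval -0.34 to -0.01, unadjusted p = 0.0323, adjusted p = 1.0). The exact permutation test of its CPM, two-sided, gave p = 0.0173, and 0.0346 with TMM-scaled CPM. In leave-one-out fits Ntng1 had an unadjusted p under 0.05 in 5 of 12, and its log2 fold change lay between -0.22 and -0.13. It lost this level without WT female 1, WT female 2, WT female 3, WT male 3, Nell-1+/6R female 1, Nell-1+/6R female 2 or Nell-1+/6R male 2, so this call depended on which mouse was left out, and it failed the correction over all genes. Without WT female 3, Rgs16 had an unadjusted p under 0.05 instead.

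Split by sex, Ntng1 had 49.6 ± 1.66 CPM for WT and 39.4 ± 3.63 CPM for Nell-1+/6R females (SD, n = 3 each; edgeR log2 fold change -0.34 ± 0.0852 (SE), unadjusted p = 0.00156, adjusted p = 0.998). In males it had 43.4 ± 1.97 and 42.0 ± 2.17 CPM (SD, n = 3 each; -0.01 ± 0.0856, edgeR unadjusted p = 0.946, adjusted p = 1.0). The interaction, the male minus the female effect, was 0.33 ± 0.121 on the log2 scale (edgeR unadjusted p = 0.0161, adjusted p = 0.987). It made Ntng1 the only one of the 8 genes with an unadjusted interaction p under 0.05, which 554 of 17937 genes (3.09%) had. Ntng2, the paralog of Ntng1, and Lrrc4c, its binding partner, had log2 fold changes of 0.12 and 0.05 between genotypes over both sexes, and Lrrc4b, a relative of Lrrc4c, had 0.07, each with an adjusted p of 1.0.

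Tac2 (Entrez ID 21334, chromosome 10, 127724478 to 127731768, plus strand) encodes the precursor of neurokinin B, a tachykinin peptide that is abundant in the medial habenula. Its promoter is shown because it is the only one of the 11 promoters of the members in the RefSeq table used (2 for Tcf7l2 and 1 for each other gene) that holds CTTTGA, the core of the motif bound by Tcf7l2 and its Lef and Tcf relatives. Plekhg1, Ptpn3 and Ntng1 have further annotated ends outside these windows, which were not searched. Each promoter window ran from 250 bases before to 50 bases after the start and was searched on both strands. The 250 bases before the start of Tac2 lie at chr10:127724228-127724477 of GRCm38.p6 on the plus strand, and the capitals mark the match, which reads CTTTGA on the minus strand and lies 80 bases before the start.
Tac2: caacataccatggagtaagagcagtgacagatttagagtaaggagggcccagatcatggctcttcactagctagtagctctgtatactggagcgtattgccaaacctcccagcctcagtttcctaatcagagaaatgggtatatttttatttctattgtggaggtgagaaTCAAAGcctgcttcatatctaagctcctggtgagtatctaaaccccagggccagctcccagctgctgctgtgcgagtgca
CTTTGA occurs in 16% of the 32851 mouse promoters in the RefSeq table, so a single match in 11 promoters is a description of letters and not a site.

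Tac2 had 1.87, 1.96 and 1.90 CPM in WT females and 2.77, 2.49 and 1.84 CPM in WT males. The Nell-1+/6R mice had 2.13, 3.31 and 2.89 CPM in females and 2.20, 2.02 and 2.58 CPM in males. Each Nell-1+/6R female lay above each WT female, whereas the males overlapped. It was the one gene of the 8, apart from Ptpn3 near 0, whose log2 fold change was above 0 (0.26 ± 0.176 (SE), 95% interval -0.14 to 0.66, edgeR unadjusted p = 0.159, adjusted p = 1.0; 2.14 ± 0.393 and 2.52 ± 0.503 CPM, SD, n = 6 each). The effect was 0.54 ± 0.232 in females (edgeR unadjusted p = 0.0381, adjusted p = 0.998) and -0.02 ± 0.235 in males (unadjusted p = 0.929), and their difference of -0.56 ± 0.33 did not pass (edgeR unadjusted p = 0.116, adjusted p = 0.987). Fitted on females alone, the effect was 0.54 with an unadjusted p of 0.058 in edgeR. With 21 to 41 counts in a mouse, Tac2 is measured with a wide counting error. The receptor of neurokinin B, Tacr3, had 0.963 to 2.62 CPM among WT and 0.237 to 3.03 CPM among Nell-1+/6R mice (log2 fold change -0.21, edgeR adjusted p = 1.0), and Tac1, another tachykinin gene, 2.45 to 4.81 and 3.03 to 5.54 CPM (0.09, adjusted p = 1.0).

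Tnnt1 (Entrez ID 21955, chromosome 7, 4504569 to 4515975, minus strand), the slow skeletal muscle form of troponin T, is a known marker of thalamic relay neurons, where its function is less clear. Its promoter is shown because it is the only one of the 11 with a TATA box (TATAAA) at the usual distance from the start. The capitals mark that motif, 30 bases before the start, in the 250 bases at chr7:4515976-4516225 of GRCm38.p6 on the minus strand, written in the direction of the gene.
Tnnt1: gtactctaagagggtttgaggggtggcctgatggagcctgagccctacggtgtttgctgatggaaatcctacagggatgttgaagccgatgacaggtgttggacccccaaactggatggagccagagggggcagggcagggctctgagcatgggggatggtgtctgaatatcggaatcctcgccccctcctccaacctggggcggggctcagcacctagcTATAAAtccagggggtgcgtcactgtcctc
TATAAA occurs on either strand in 13.6% of the 32851 promoters, and in 2 of the 11 here, the other match lying 242 bases before the second start of Tcf7l2. TAATTA, the core bound by many homeodomain factors, occurs in 5.29% of the promoters and in 0 of the 11.

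Tnnt1 had 0.738, 1.10 and 1.93 CPM as the lowest, median and highest WT level and 0.607, 1.00 and 1.16 CPM in Nell-1+/6R mice. WT female 2, at 1.88 CPM, and WT male 3, at 1.93 CPM, stood above all other mice, and the other 4 WT mice lay within the Nell-1+/6R range. These are 8 to 24 counts in a WT mouse and 8 to 16 in a Nell-1+/6R mouse, and the difference of -0.41 ± 0.275 had a wide interval (edgeR log2 fold change and SE; 1.27 ± 0.510 and 0.933 ± 0.222 CPM, SD, n = 6 each; 95% interval -1.04 to 0.21, unadjusted p = 0.156, adjusted p = 1.0). Tnnt2, the cardiac form, had a log2 fold change of -0.50 ± 0.228 (edgeR unadjusted p = 0.0454, adjusted p = 1.0) and was the only one of 31 tested paralogs and partners of the 10 genes with an unadjusted p under 0.05. Of those 31, 14 had a log2 fold change above 0 and 17 below, with a median of -0.03.

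By sex alone, with genotype held fixed, none of the 8 genes differed in edgeR, with log2 differences of males minus females from -0.25 for Zic1 to 0.17 for Tcf7l2 and adjusted p of 0.869 or more. Within females 2 of the 8 genes, Ntng1 and Tac2, had an unadjusted p under 0.05 between genotypes, as 510 of 17937 genes (2.84%) did. Within males 1 of the 8, Plekhg1, reached that level, as 605 genes (3.37%) did. The log2 fold change of Plekhg1 between genotypes was -0.34 ± 0.152 in males (edgeR unadjusted p = 0.0439, adjusted p = 1.0; 22.2 ± 4.86 and 17.0 ± 0.686 CPM, SD, n = 3 each) and -0.01 ± 0.151 in females. Its interaction of -0.33 ± 0.214 did not pass (edgeR unadjusted p = 0.154), and males fitted alone gave -0.33 with an unadjusted p of 0.0613.

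Whether the markers rise and fall together from mouse to mouse was asked next. Over the 12 mice, with genotype means removed, the 28 pairs among the 8 genes had a median Pearson r of 0.0932, from -0.591 to 0.718, and 18 of the 28 were above 0. With the genotype means kept, the median r was 0.253. Tcf7l2 correlated with Plekhg1 (r = 0.718, Spearman coefficient = 0.587, permutation p = 0.00955) and with Tnnt1 (r = 0.653, Spearman coefficient = 0.608, permutation p = 0.0227), and Plekhg1 with Tnnt1 (r = 0.636, Spearman coefficient = 0.734, permutation p = 0.0279). Without the 2 mice farthest from the median these were 0.514, 0.546 and 0.803. Tcf7l2 with Zic1 had r = 0.58 (Spearman coefficient = 0.517, permutation p = 0.0494 and 0.089), and Rgs16 with Ptpn3 went the opposite way (r = -0.591, Spearman coefficient = -0.601, permutation p = 0.0452 and 0.0426). None of these 5 pairs passed adjustment over the 28 (smallest adjusted permutation p = 0.26 for Pearson r and 0.248 for the Spearman coefficient). By rank alone Tcf7l2 and Tac2 also went opposite ways (Spearman coefficient = -0.594, permutation p = 0.0448, adjusted p = 0.276; r = -0.467, permutation p = 0.125).

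**Figure D3:**
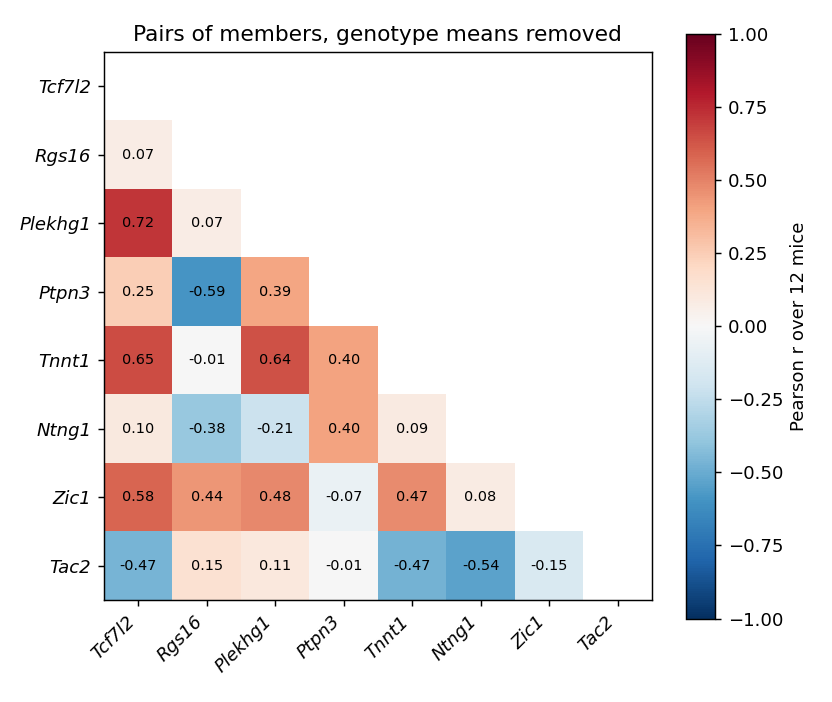
Pearson r of log2 CPM for each of the 28 pairs of the 8 tested genes over 12 mice, with the mean of each genotype removed (red above 0, blue below 0). Tcf7l2, Plekhg1 and Tnnt1 give the 3 highest values, 0.64 to 0.72, while the values of Tac2 lie between -0.54 and 0.15.

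The mean of 14 other thalamus genes with at least 1 CPM gave a further comparison. Ptpn3 (r = 0.75, Spearman coefficient = 0.713, permutation p = 0.00455), Tcf7l2 (r = 0.702, Spearman coefficient = 0.566, permutation p = 0.011) and Plekhg1 (r = 0.681, Spearman coefficient = 0.671, permutation p = 0.0153) followed it over the 12 mice, but their adjusted p over the 104 relations were 0.158, 0.191 and 0.213. Without the 2 farthest mice the r were 0.556, 0.763 and 0.67. For Rgs16 and Tac2 it was -0.156 and -0.0834. Other lists gave values of like size, such as Plekhg1 with oligodendrocyte precursor genes (r = 0.681, permutation p = 0.0164, adjusted p = 0.213), Ptpn3 with microglia genes (r = -0.705, permutation p = 0.0105, adjusted p = 0.191) and Zic1 with astrocyte genes (r = 0.757, permutation p = 0.00452, adjusted p = 0.158). With the mean of the 3 other habenula genes of at least 1 CPM, r ran from -0.705 for Tnnt1 (permutation p = 0.0107, adjusted p = 0.191) to 0.187 for Ntng1, and it was 0.0818 for Tac2. The genes most like each member in all, here with the genotype means kept, were Meox1 for Tcf7l2 (r = 0.946 over 12 mice), Il17rb for Rgs16 (r = 0.949), Gm19500 for Plekhg1 (r = 0.944), Zhx3 for Ptpn3 (r = 0.95), Ptpra for Tnnt1 (r = 0.848), Poglut3 for Ntng1 (r = 0.883) and Grwd1 for Tac2 (r = 0.874). Each is the highest of 14391 genes, and none is one of the other 9 markers.

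Other genes of the 2 regions place these results. All 17 other thalamus genes were tested, and 4 had a log2 fold change above 0 and 13 below, with a median of -0.10. Slc17a6, the vesicular glutamate transporter VGLUT2 of thalamic and habenular neurons, was the only one of the 17 past the thresholds of the study or at an adjusted p under 0.05, as 1.46% and 0.039% of all genes were. It lies on chromosome 7 from 51621830 to 51671126, on the chromosome of Nell1, which ends at 50863289. It had 13.7 to 21.5 CPM among WT and 5.73 to 9.54 CPM among Nell-1+/6R mice, with no overlap (edgeR log2 fold change -1.23 ± 0.15 (SE), adjusted p = 0.0035). Its 95% interval of -1.57 to -0.89 overlapped those of Zic1 and Tnnt1 and lay below those of the other 6 tested markers, and these differences between genes were not tested. Synpo2 (log2 fold change -0.45 ± 0.162, edgeR unadjusted p = 0.0156, adjusted p = 1.0) was the other thalamus gene with an unadjusted p under 0.05, while Adarb1 and Cacna1g, the most abundant of the list, had -0.03 and 0.14.

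Of 11 other habenula genes, all tested, 4 had a log2 fold change above 0 and 7 below, with a median of -0.08. Chrnb4, a nicotinic receptor subunit of the medial habenula, and Slc18a3, the vesicular acetylcholine transporter, passed the thresholds of the study as lower in Nell-1+/6R mice (edgeR log2 fold changes -1.72 ± 0.79 and -2.70 ± 0.966, unadjusted p = 0.0476 and 0.0145, adjusted p = 1.0). They were the 2 of the 11 to pass, beside 1.46% of all genes tested. WT female 2 held 72 of the 102 WT counts of Chrnb4, and Slc18a3 had 10 counts in all WT and 1 in all Nell-1+/6R mice. Genes of the pineal gland, which lies behind the habenula, also stood out in WT female 2, which held 76 of the 102 WT counts of Tph1, while their summed level was 0.943 to 2.45 CPM in the other 5 WT and 0.869 to 1.73 in the Nell-1+/6R mice. Of that list, 4 of 5 genes were tested and 3 (Asmt, Tph1 and Crx) passed the thresholds of the study as lower, as 1.46% of all genes passed them. Crx was at 0 in every Nell-1+/6R mouse. Asmt was not confined to WT female 2, with 0.271 to 0.923 CPM among WT and 0 to 0.242 CPM among Nell-1+/6R mice. The other tested gene, Aanat, had a log2 fold change of 0.12. The part of these pineal genes in the values of Chrnb4 and Slc18a3 was not tested. Choline acetyltransferase, Chat, of the same neurons had 4 and 12 counts and a log2 fold change of 1.33 (edgeR adjusted p = 1.0). Nr4a2 and Htr5b, the most abundant of this list, had -0.01 and 0.25.

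**Figure D4:**
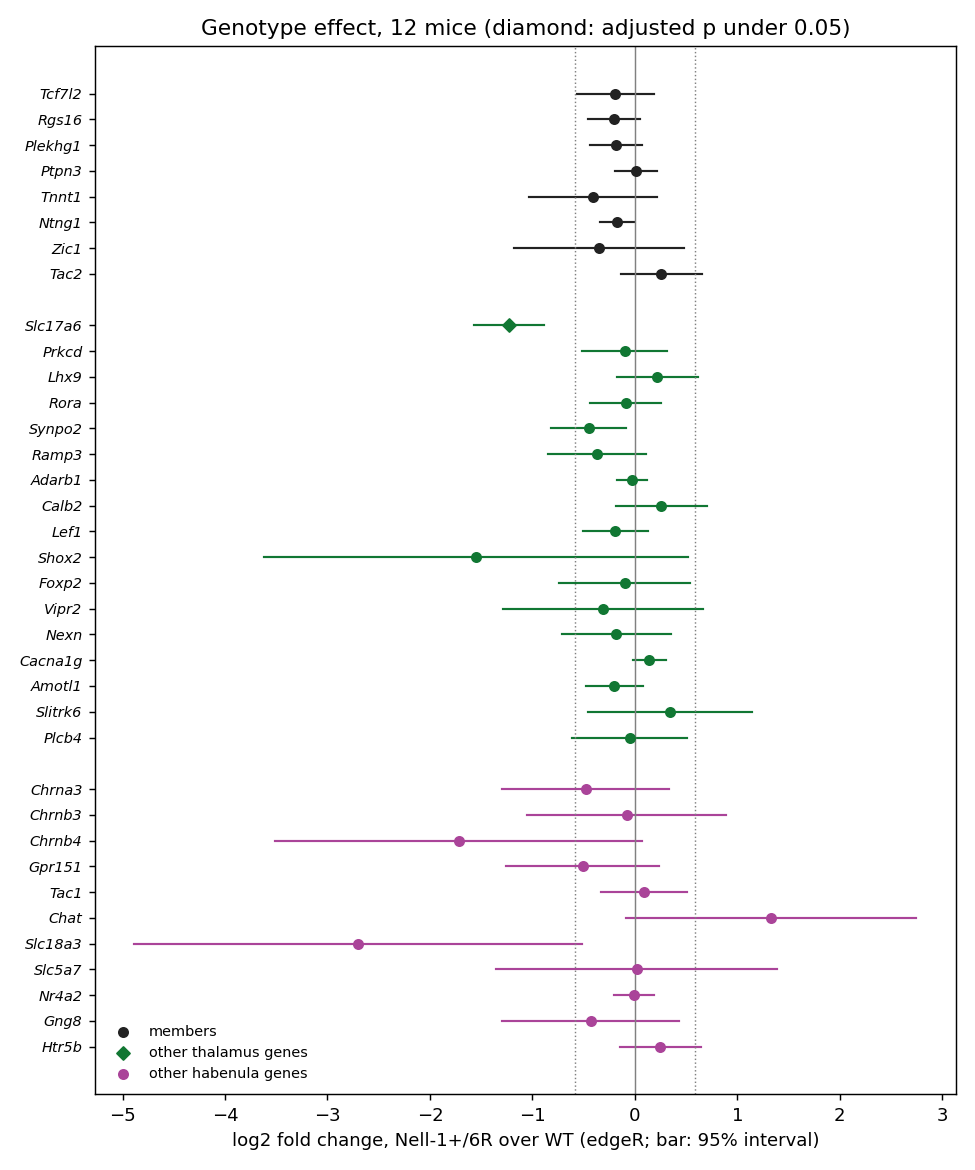
Log2 fold change of Nell-1+/6R over WT (edgeR with sex as a covariate, 12 mice) with its 95% interval for the 8 tested markers (black), 17 other thalamus genes (green) and 11 other habenula genes (purple). Dotted lines mark a 1.5-fold change, and the diamond marks Slc17a6 at -1.23, the only gene shown with an adjusted p under 0.05.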

How the data were processed

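The authors sequenced the RNA, aligned the reads to mm10 (GRCm38) with HISAT2 2.1.0 and counted them per gene with featureCounts, as version 2.0.1 per the labels, whereas the study's methods name an earlier version. The deposited values are raw counts without normalization, in 12 columns matched to mice by the sample names in the labels (0 unmatched). Annotation, strand setting and handling of multiply placed reads are not stated in these sources. WT titles contain Het, yet the genotype field reads WT.

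Genes were tested by the quasi-likelihood test of edgeR 4.0.16 (R 4.3.3) with TMM factors, sex and genotype, where the CPM reached 0.2 in 2 or more mice, and p was adjusted over 17937 genes (Benjamini-Hochberg). A model of 4 groups gave effects within a sex. Intervals of 95% use the standard error and residual degrees of freedom. Correlations used log2 CPM (prior count 2) and 100000 permutations. Exon lengths and gene strands are from GENCODE on GRCm38, where a length is the union of the exons of the gene of the same symbol. Positions and promoters are from RefSeq, GRCm38.p6. The test was checked on simulated data. Alternatives were DESeq2 1.42.0, limma-voom (limma 3.58.1), other factors and filters, genotype alone, a replicate block, 1 sex alone and each mouse left out.

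Although no measured value entered the rule for the members, they, the lists and the tests were chosen with earlier results of these data known. Besides the 10 members, the text names Nell1, Slc17a6, genes of the thalamus, habenula and paralog lists with an unadjusted p under 0.05, the 2 most abundant genes of the lists, and those most like a member. Partners and other genes beyond this rule were named after their values had been seen.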

Additional observations from a re-analysis of the deposited data

Results flagged for a closer look

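For Ntng1 the interaction of genotype and sex, a male minus female effect of 0.33 on the log2 scale, had an unadjusted p of 0.0161 in edgeR but did not pass adjustment over all genes (adjusted p = 0.987). The effect was -0.34 in females, where 3 of 3 WT mice were above 3 of 3 Nell-1+/6R mice, and -0.01 in males. It was the only 1 of 8 genes with an unadjusted interaction p under 0.05, which 3.09% of all genes had.

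Among the WT mice, male 2 stood apart for Gbx2 at 0.686 CPM, or 8 counts, with the next WT mouse at 0.185 CPM. The gap was 0.73 of the range of the 6 mice, above Dixon's critical value at 95%. It was the only such sample among the 20 groups of 6 mice, where chance gives about 1 in 20.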

How the results depend on the processing

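The 8 tested members were refitted under 24 alternatives, all planned. None reached an adjusted p under 0.05 or the thresholds of the study in any of the 24, and 184 of the 192 log2 fold changes kept their sign. The other 8 changed it, at values near 0. Ptpn3 gave -0.05 without male WT replicate 1, -0.04 without female or male Nell-1+/6R replicate 3 and -0.03 without female WT replicate 1, with a leave-one-out range of -0.05 to 0.05. In females alone Zic1 was 0.06 and Ptpn3 -0.00. Zic1 was -0.76 in males alone (edgeR unadjusted p = 0.063) and ran from -0.67 to -0.18 with a mouse left out. In males alone Tac2 was -0.01 and Ntng1 0.00, against -0.17 over both sexes. Ntng1 kept an unadjusted p under 0.05 in 11 of 12 fits other than leave-one-out, the exception being males alone. Slc17a6 lost its adjusted p under 0.05 within females (-1.32) and within males (-1.13), where only 6 mice enter.

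The number of genes past the thresholds of the study, 261, was 170 in DESeq2, 94 with filterByExpr, 82 where 6 or more mice reached a CPM of 1, 403 in males alone, and 202 to 400 with a mouse left out, the highest without female Nell-1+/6R replicate 1. At an adjusted p under 0.05, 7 became 13 in DESeq2, 1 in males alone and 0 in females alone. Of the other thalamus genes, 4 passed in males alone. Of the other habenula genes, the 2 became 1 in DESeq2, with the replicate block and in females alone, 0 with filterByExpr, with the CPM minimum of 1 and in males alone, and 1 to 2 with a mouse left out. The cause of these shifts was not tested. The median r of the 28 pairs was 0.253 with genotype means kept, against 0.0932.

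The correlation of deviations between mice was -0.205 to 0.353 for 18 pairs with equal replicate numbers and -0.363 to 0.36 for 36 others. Which mice were littermates is not given in the labels, so these values cannot decide whether mice were paired. With the replicate block, 212 genes passed the thresholds and 9 had an adjusted p under 0.05, and Ntng1 remained the only member with an unadjusted p under 0.05. Depth limits Pou4f1 and Gbx2, with 8 and 19 counts over all mice, and widens the intervals of Tnnt1 and Tac2.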
